A study of Homo sapiens with 6 samples.

Results

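The DNA replication machinery was followed as 48 genes, from the proteins that mark replication origins to those that rebuild chromatin behind the fork, and all 48 were among the 14778 genes tested, out of 60624 genes in the deposited table. The genes were chosen by symbol, at a time when earlier results of these data were known, and were placed in 12 groups by role. A549, an established human lung adenocarcinoma line, was transfected with small interfering RNA (siRNA) against CEP20 (siCEP20, 3 libraries) or with a control siRNA (siCTR, 3 libraries) for 3 days, and poly(A) RNA was sequenced. Labels and methods name different media and RNA kits, and 1 label field gives the treatment as transfection of a plasmid although the samples are titled by their siRNA. CEP20 encodes a centrosomal protein that binds microtubules. The methods name more than one CEP20 siRNA, and which of them these libraries received is not given in the sources used here. Apart from the siRNA the groups share the cell line and the culture, and nothing in the labels says whether the 3 libraries of a group came from separate cultures, so the p-values measure the spread between these libraries, which may be technical.

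A replication origin is first bound by the origin recognition complex (ORC), and CDC6 and CDT1 then load the ring of MCM2 to MCM7 around the DNA. The loaded ring becomes the working helicase when CDC45 and the GINS complex, which has one copy each of GINS1, GINS2, GINS3 and GINS4, join it. At the fork, polymerase alpha-primase lays primers, RFC loads the sliding clamp PCNA, polymerases epsilon and delta copy the strands, RPA covers single-stranded DNA, and FEN1 and LIG1 finish the Okazaki fragments. Many of these genes are transcribed as cells enter S phase under E2F transcription factors, and their proteins work in fixed assemblies.

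The knockdown itself was visible in each library. CEP20 (ENSG00000133393) had 29.2, 30.5 and 35.1 TPM (an abundance scaled by transcript length and by the library total) in siCTR and 16.2, 15.3 and 17.3 TPM in siCEP20, so that 51.4% of the control mean was left (limma, adjusted p = 0.000205; exact two-sided permutation test p = 0.1, the smallest that 3 against 3 libraries allow). The libraries held between 14429 and 14987 genes at 1 TPM or more. Of 12 markers of A549 and its epithelial origin, 7 rose and 4 fell, with KRT8 at 1587 ± 75.1 and 2292 ± 113 TPM and AKR1C2 at 1672 ± 86.7 and 1143 ± 46.4 TPM in siCTR and siCEP20. Their summed level (9450 to 9460 TPM and 9644 to 10110 TPM) therefore covers opposite changes. CDKN2A, which A549 has lost, did not pass 0.608 TPM in any library. Among fibroblast markers 6 of 8 were under 1 TPM in every library (COL1A2, COL3A1, DCN, LUM, PDGFRB and FAP), while COL1A1 and THY1 rose and took the summed level from 12.1 to 15.2 TPM in siCTR to 31.2 to 35.2 TPM in siCEP20. Of 7 blood cell markers PTPRC, CD3E and HBB were under 1 TPM in every library. CD68 rose (a call that was lost without siCTR replicate 1), CD14 and ITGAM did not pass the test, and LYZ was under the filter of 1 TPM. The sum went from between 25.7 and 36.1 TPM to between 36.7 and 57.2 TPM. All 4 endothelial markers were under 1 TPM. The part of these markers in the replication results was not tested.

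Short stretches of the promoters show letters that many, though not all, genes of this machinery share, among those that rose and those that fell. A window of 250 bases before and 50 bases after the RefSeq start (GRCh38.p14) was found for 42 of the 48 genes, and the 7-letter E2F form TTCCCGC, together with its variant TTCGCGC, the further variant TTGCCGC and lastly the variant TTGGCGC, was searched on both strands. At least 1 of these forms was present in 32 of the 42 genes (76.2%), against 13.0% of all 35116 windows and 25.7% of the 9893 tested coding genes with a window. The stretches below are those around the match nearest to the start for 4 genes that rose (CDT1, GINS2, POLA2, RFC1) and 4 that fell (GINS1, GINS3, RFC3, RFC4), written 5′ to 3′ on the strand of the gene, with the matching letters in capitals. The RFC1 stretch ends where its window ends.
CDT1: gggaaatttgGCGGGAAccgcgcccgc
GINS2: tctcgccgtgGCGGGAAaacggcggcc
POLA2: ggctcccggtTTCGCGCatgcgtgcac
RFC1: ggagaagttgTTGGCGCgaatggatc
GINS1: gctttgttcgGCGCCAAagcgcggagc
GINS3: gtccccgggcGCGGGAAacgagtttca
RFC3: tttggagctcGCGGGAAaacttgtctc
RFC4: taccggcgtaTTCCCGCcctgcttttc
The GINS1 stretch lies at chr20:25407668-25407694 on the plus strand and its match begins at base 6 of the transcript, whereas the CDT1 stretch lies at chr16:88803756-88803782 on the plus strand and its match begins at base -23, counting the first transcribed base as 1. In GINS2 (chr16:85688969-85688995, minus strand) the same GCGGGAA letters begin at base -31, in GINS3 (chr16:58392456-58392482, plus strand) at base -5 and in RFC3 (chr13:33818084-33818110, plus strand) at base -55. POLA2 (chr11:65261900-65261926, plus strand), RFC1 (chr4:39366313-39366338, minus strand) and RFC4 (chr3:186806476-186806502, minus strand) carry their nearest match at bases -52, 35 and -10. All stretches are placed from the RefSeq start, which can lie away from the start of the annotated gene span. On their own strands the spans of GINS3, GINS2 and RFC4 start at bases 58295080, 85690073 and 186807058. The E2F letters were in 11 of 12 windows of genes that rose, in 6 of 7 of genes that fell and in 15 of 23 of genes that did not pass the test. The CCAAT letters were in 25 of the 42 windows (59.5%; 34.6% of all windows and 43.3% of the tested coding genes), and TTTGAA, the core of the cell cycle homology region, was in 1 (15.2% and 13.2%). A match is a stretch of letters and does not show that a factor binds there.

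As a whole, the machinery did not move in one direction. After CEP20 knockdown 14 of the 48 genes rose (29.2%) and 8 fell (16.7%), against a background of 30.2% higher and 13.2% lower among all tested genes (43.3% in either direction; limma on log2(TPM + 1), Benjamini-Hochberg adjustment over all tested genes, adjusted p under 0.05). The median log2 fold change of the 48 genes was 0.14 and that of all tested genes was 0.13, so relative to all genes the median was 0.008. In RNA from whole cultures, fewer cells that express a gene and less of its RNA per cell cannot be told apart. Summed over the 48 genes, the libraries held 2026, 2124 and 2199 TPM in siCTR and 2193, 2301 and 2161 TPM in siCEP20, ranges that overlap. Under the fold thresholds of 1.5 and 0.67 as well, CDT1 and GINS4 were higher (background 11.2%) and GINS1 was lower (background 4.61%). Without siCEP20 replicate 2 the count of lower genes past both thresholds was 2, and without siCEP20 replicate 3 the count of genes that fell was 5. The 3 siCEP20 values lay above the 3 siCTR values in 21 genes (background 38.4%) and below them in 10 (background 17.0%).

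The direction of the smaller changes depended on how the libraries were scaled. With libraries scaled by the median of ratios, which moved the median of all tested genes from 0.13 to 9.42e-05, 11 of the 48 genes were higher and 16 lower, and over all tested genes 2963 were higher and 3185 lower. All 8 genes that fell on the deposited scale stayed lower there and 11 of the 14 that rose stayed higher, none changed sides, and LIG1, MCM3, MCM7, ORC6, PCNA, POLD1, RPA2 and UHRF1 were added to the lower genes. MCM6, POLE and CHAF1A were not past the test on that scale. The estimates of all 48 genes are drawn by role in the plot of log2 fold changes.

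**Figure D1:**
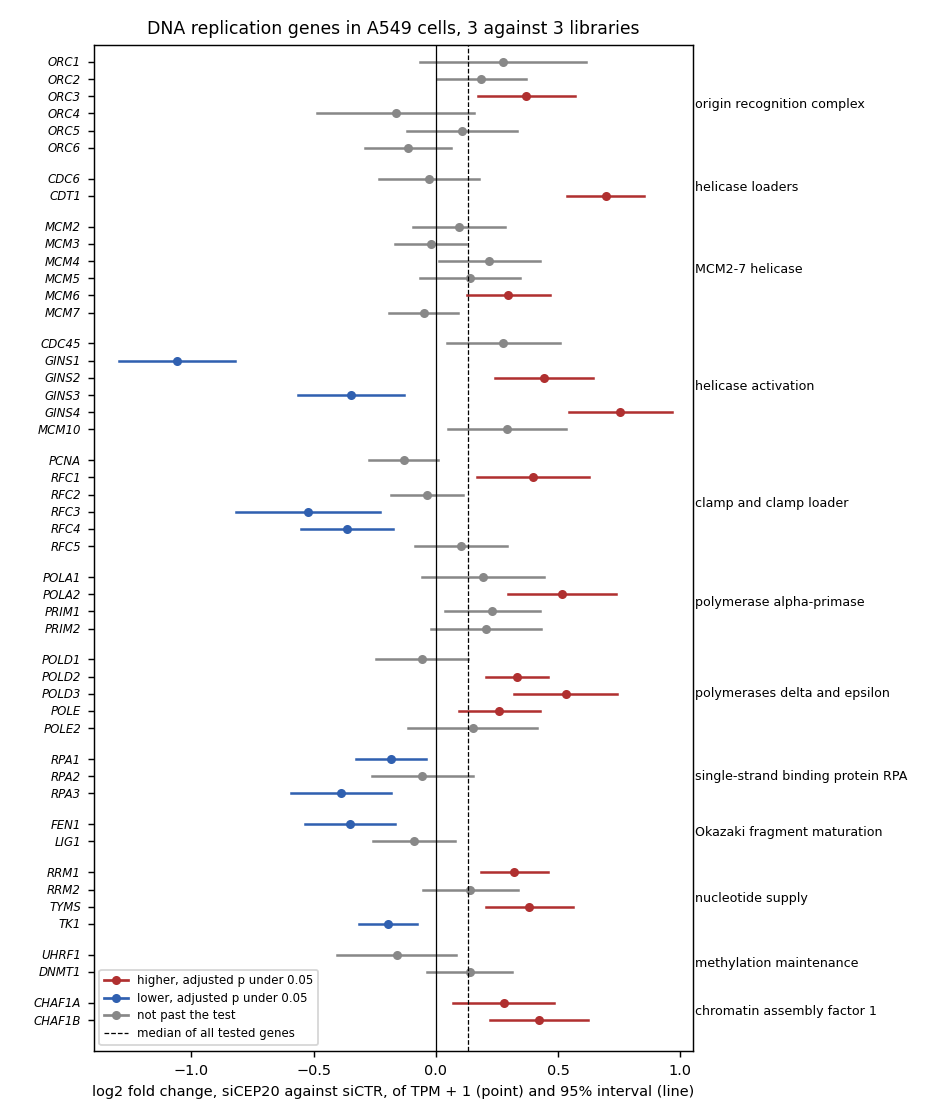
Log2 fold change of TPM + 1 in siCEP20 against siCTR for the 48 replication genes, grouped by role, with 95% intervals (n = 3 libraries a group); red points rose, blue points fell and grey points did not pass the test. The estimates run from -1.06 (GINS1) to 0.75 (GINS4) around the dashed median of all tested genes at 0.13, and red and blue points occur together among the helicase activation, clamp loader and nucleotide supply genes.

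The GINS complex showed the widest range of fold changes among the 9 complexes examined: its 4 subunits, which enter the helicase one to one, moved in opposite directions. GINS1 (PSF1; ENSG00000101003, chromosome 20, 25391008 to 25452700, plus strand, hg38) had 16.4, 19.1 and 17.7 TPM in siCTR and 8.24, 7.06 and 8.67 TPM in siCEP20. Every siCEP20 value was thus under 9 TPM and the groups did not overlap (log2 fold change -1.06, SE 0.103, adjusted p = 0.000185). GINS4 (SLD5; ENSG00000147536, chromosome 8, 41529218 to 41545030, plus strand) went the other way, from 21.4, 22.2 and 25.4 TPM to 36.9, 43.2 and 38.3 TPM. Its log2 fold change was 0.75 (SE 0.0918, adjusted p = 0.000496), and the 95% intervals of GINS1 (-1.30 to -0.82) and GINS4 (0.54 to 0.96) lie on either side of zero. GINS2 rose from 15.0 ± 1.44 to 20.7 ± 0.373 TPM (SD, n = 3; adjusted p = 0.00446), and GINS3 fell from 15.2 ± 1.55 to 11.7 ± 0.484 TPM (adjusted p = 0.0187). The GINS3 call was lost without siCTR replicate 2 and without siCEP20 replicate 2 or 3 (adjusted p up to 0.0636), while the calls of the other 3 subunits held in all 14 alternative settings.

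The subunits of GINS were therefore close in level in the control cells and far apart after knockdown. The highest subunit stood at 1.54, 1.54 and 1.77 times the lowest in the siCTR libraries and at 4.48, 6.12 and 4.42 times the lowest in the siCEP20 libraries, as TPM, which is per length. In siCEP20 the highest was GINS4 and the lowest GINS1 in each library, with a ratio of 5.00 ± 0.965 against 1.30 ± 0.134 in siCTR, and GINS2 over GINS1 went from 0.848 ± 0.0921 to 2.61 ± 0.330 (SD, n = 3). The ratio for MCM2 to MCM7 was 6.04 ± 0.132 in siCTR and 4.72 ± 0.0839 in siCEP20. That for polymerase delta, with POLD4 from outside the 48 genes, was 15.7 ± 3.16 and 11.5 ± 0.252. Both were lower in every siCEP20 library. For ORC, RFC, polymerase alpha-primase, polymerase epsilon (with POLE3 and POLE4), RPA and chromatin assembly factor 1 (with RBBP4) the values of the groups overlapped, as the plot of the spread inside complexes shows.

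**Figure D2:**
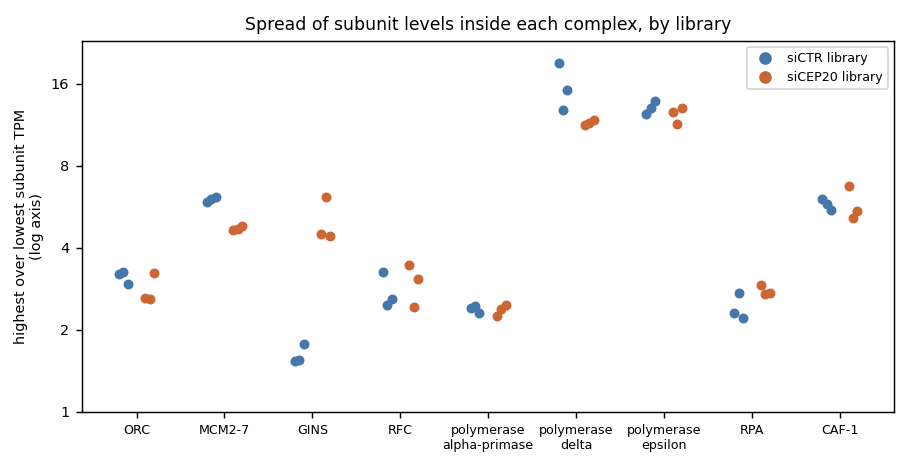
Highest over lowest subunit TPM (log axis) in each complex, with 1 point for each of the 3 siCTR (blue) and 3 siCEP20 (orange) libraries. GINS is at 1.54 to 1.77 in siCTR and 4.42 to 6.12 in siCEP20, MCM2-7 and polymerase delta are lower in siCEP20 than in siCTR, and the other 6 complexes overlap.

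Of the 2 other factors that act with GINS, CDC45 had 22.1 ± 2.90 TPM in siCTR and 26.8 ± 1.08 TPM in siCEP20 (adjusted p = 0.0549), and MCM10 had 10.1 ± 0.991 and 12.6 ± 1.10 TPM (adjusted p = 0.0538). In both the siCEP20 libraries lay above the siCTR libraries (background 38.4%), and neither passed the test. CDC45 passed at a mean of at least 5 TPM, with the replicate block (adjusted p = 0.0463) and without siCTR replicate 3 (adjusted p = 0.0182). MCM10 passed at a mean of at least 5 TPM and without siCTR replicate 2 or siCEP20 replicate 3 (adjusted p = 0.0449 and 0.0417). GINS1 shares 1107 bases with NINL on the opposite strand, which rose (log2 fold change 0.40, with adjusted p = 0.0619 under the length and GC correction). The annotated GINS1 gene span starts 173 bases from ABHD12 on the opposite strand. ABHD12 had 127 TPM in siCTR and 124 TPM in siCEP20 and did not pass the test. That span starts at base 25391008, whereas the GINS1 promoter stretch above lies at 25407668 to 25407694, near a different, RefSeq start. Whether the quantification used strand is not given in the sources used here, so reads of overlapping genes may not be fully told apart. GINS2 shares 7 bases with GSE1, which rose as well (log2 fold change 0.75).

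Before the helicase is activated it has to be loaded, and of the helicase loaders CDT1 rose and CDC6 did not pass the test. CDT1 (ENSG00000167513, chromosome 16, 88803789 to 88809258, plus strand), which brings the MCM ring to the origin, had 19.4, 21.1 and 19.97 TPM in siCTR and 32.9, 32.9 and 33.9 TPM in siCEP20. The groups were far apart for their spread (log2 fold change 0.69, SE 0.0683, adjusted p = 0.000194), and the estimate stayed between 0.55 and 0.73 in all 14 alternatives. CDC6, the ATPase that works beside it and the more abundant of the pair, had 50.0, 52.8 and 62.4 TPM in siCTR and 51.4, 55.2 and 54.7 TPM in siCEP20 (log2 fold change -0.03, 95% interval -0.23 to 0.18). CDC6 was lower under the length and GC correction (log2 fold change -0.208, adjusted p = 0.0446). Geminin (GMNN), which binds CDT1 and blocks loading, had 23.1 ± 1.19 and 27.1 ± 2.56 TPM (adjusted p = 0.0818), and CDT1 over GMNN went from 0.873 ± 0.0457 to 1.24 ± 0.146 (SD, n = 3) with no overlap between groups.

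**Figure D3:**
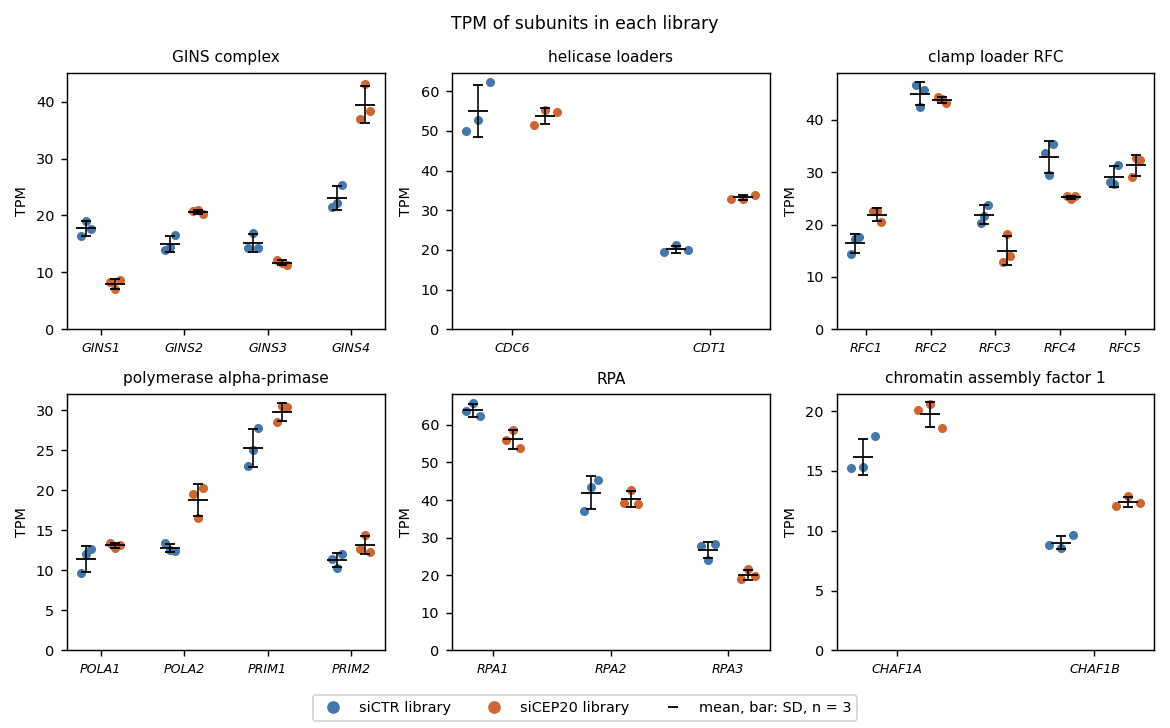
TPM of those subunits of 6 assemblies that are among the 48 genes, in each siCTR (blue) and siCEP20 (orange) library, with means and SD (n = 3). GINS4 and CDT1 are higher and GINS1 lower in siCEP20 with no overlap between groups, while CDC6, RFC2, RFC5 and RPA2 overlap.

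Most of the origin recognition complex did not pass the test. ORC3, a core subunit, rose from 12.3, 12.8 and 12.9 TPM to 15.4, 18.2 and 16.5 TPM (log2 fold change 0.37, SE 0.0863, adjusted p = 0.00976). ORC5, the subunit with the highest mean, had 27.9, 31.7 and 36.5 TPM in siCTR and 33.9, 35.2 and 34.1 TPM in siCEP20, ranges that overlap. ORC1, ORC2, ORC4 and ORC6 had log2 fold changes between -0.16 and 0.27 and did not pass the test. ORC1, which is made in G1 and lost in S phase, had 10.3 ± 1.89 TPM in siCTR and 12.6 ± 1.89 TPM in siCEP20 with an interval of -0.07 to 0.62, so a rise of over 1.5 times was within it.

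The MCM2 to MCM7 ring, by TPM the largest of the 12 role groups, was close to its control level. The summed level of the 6 genes was 422 ± 14.1 TPM in siCTR and 441 ± 30.4 TPM in siCEP20 (SD, n = 3). MCM6 alone rose, from 31.2, 31.5 and 32.1 TPM to 39.2, 41.9 and 36.1 TPM (log2 fold change 0.30, SE 0.0738, adjusted p = 0.0131), and that call was lost without siCEP20 replicate 2 and under median-of-ratios scaling, quantile normalization and the length and GC correction (adjusted p up to 0.143). MCM7, the most abundant subunit, had 184, 190.5 and 197 TPM in siCTR and 183, 196 and 174 TPM in siCEP20. The 5 subunits that did not pass the test had 95% intervals within -0.19 and 0.42 on the log2 scale, so changes of the size seen in GINS1 or GINS4 lay outside them. MCM3 and MCM7 were lower under median-of-ratios scaling, and MCM4 was higher without siCEP20 replicate 3 (adjusted p = 0.0444).

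PCNA and its loader RFC held genes that rose and genes that fell. PCNA, the ring that tethers polymerases to DNA and the most abundant of the 48 genes, had 209, 228 and 236 TPM in siCTR and 208, 208 and 197 TPM in siCEP20. All siCEP20 values were lower, though by little, and the difference did not pass the test (log2 fold change -0.13, adjusted p = 0.117) on the deposited scale, whereas PCNA was lower under median-of-ratios scaling, quantile normalization and the length and GC correction, and without siCTR replicate 1 (adjusted p = 0.0419). RFC4, a small subunit of the loader, fell from 33.8, 29.4 and 35.3 TPM to 25.4, 24.9 and 25.5 TPM (log2 fold change -0.36, SE 0.0823, adjusted p = 0.00855). RFC3, another small subunit, fell from 21.9 ± 1.78 to 15.0 ± 2.78 TPM (log2 fold change -0.52, adjusted p = 0.0118), whereas RFC1, the large subunit, rose from 16.4 ± 1.86 to 21.9 ± 1.27 TPM (log2 fold change 0.40, adjusted p = 0.0130). RFC1 over RFC3 was 0.750 ± 0.0466 in siCTR and 1.49 ± 0.258 in siCEP20. RFC2 and RFC5 had log2 fold changes of -0.04 and 0.10 and did not pass the test. RFC4 shares 18 bases with EIF4A2 on the opposite strand, which rose (log2 fold change 0.40; adjusted p = 0.112 under the length and GC correction). The RFC1 call was lost under the length and GC correction (adjusted p = 0.0645) and the RFC3 call without a filter on TPM (adjusted p = 0.0545).

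Among the polymerase genes of the 48, 4 of 9 rose and none fell on the deposited scale (44.4%; background 30.2% higher and 13.2% lower). Of the polymerase subunits outside the 48, POLE4 fell (log2 fold change -0.86), and POLD4 and POLE3 did not pass the test. POLD1 was lower under median-of-ratios scaling and under the length and GC correction. POLA2, the regulatory subunit of polymerase alpha, had 13.4, 12.6 and 12.4 TPM in siCTR and 19.5, 16.5 and 20.3 TPM in siCEP20 (log2 fold change 0.51, SE 0.0962, adjusted p = 0.00355). The primase subunit PRIM1 had 23.1, 25.0 and 27.8 TPM in siCTR and 28.5, 30.5 and 30.4 TPM in siCEP20 and did not pass the test (adjusted p = 0.0575), though it did without siCTR replicate 3 (adjusted p = 0.0254). In all 4 genes of polymerase alpha-primase the siCEP20 libraries lay above the siCTR libraries (background 38.4%), though only POLA2 passed the test. The sum of the 4 genes was 60.8 ± 3.78 TPM in siCTR and 74.8 ± 1.18 TPM in siCEP20. POLA2 shares 44032 bases, most of its span, with ENSG00000285816 on the same strand, which did not pass the test (log2 fold change -0.08). PRIM1 shares 1191 bases with NACA on the same strand, which fell (log2 fold change -0.34). Reads of these overlapping genes may not be fully told apart. POLD2, an accessory subunit of polymerase delta, rose from 177, 168 and 173 TPM to 211, 229.8 and 213 TPM (log2 fold change 0.33, SE 0.0551, adjusted p = 0.00200), and POLD3 rose from 14.9 ± 1.16 to 21.9 ± 1.68 TPM (adjusted p = 0.00245). The catalytic subunit POLD1 had 47.7 ± 4.80 and 45.6 ± 1.58 TPM and did not pass the test. POLE, the catalytic subunit of polymerase epsilon, rose from 19.7 ± 0.929 to 23.8 ± 0.374 TPM (log2 fold change 0.26, adjusted p = 0.0196), a call that was lost in 5 of 14 alternatives, among them those without siCEP20 replicate 1 or 2. Its log2 fold change was 0.00016 under the length and GC correction. POLE2 had 6.35 ± 0.529 and 7.17 ± 0.791 TPM and did not pass the test. PXMP2, which starts 211 bases from POLE on the opposite strand, fell (log2 fold change -0.45), a call that was lost without siCTR replicate 3 and without siCEP20 replicate 1 or 2.

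RPA and the Okazaki fragment enzymes were the role groups in which no estimate was above zero. RPA3, the smallest RPA subunit, fell from 27.7, 24.1 and 28.3 TPM to 19.1, 21.6 and 19.7 TPM (log2 fold change -0.39, SE 0.0887, adjusted p = 0.00891). RPA1, the large DNA-binding subunit, had 63.6, 65.8 and 62.3 TPM in siCTR and 55.9, 58.8 and 53.7 TPM in siCEP20. It fell by 0.18 on the log2 scale (adjusted p = 0.0421), and the call was lost in 6 of 14 alternatives, 5 of which left out 1 library: each siCTR library, and siCEP20 replicate 1 or 3. RPA2 had 42.0 ± 4.46 and 40.3 ± 2.15 TPM and did not pass the test. The summed level of RPA was 133 ± 3.97 TPM in siCTR and 117 ± 5.80 TPM in siCEP20. RPA3 shares 77897 bases, most of its span, with UMAD1 on the opposite strand, which did not pass the test (log2 fold change 0.31, adjusted p = 0.219).

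FEN1, the nuclease that trims the flaps of Okazaki fragments, had 54.0, 60.8 and 58.1 TPM in siCTR and 42.0, 43.7 and 49.2 TPM in siCEP20. The groups did not overlap (log2 fold change -0.35, SE 0.0802, adjusted p = 0.00864). The FEN1 gene shares 4259 bases, most of its span, with FADS2 on the same strand, and FADS2 rose (log2 fold change 0.60). TMEM258, which starts 109 bases from FEN1 on the opposite strand, fell from 149 to 70.2 TPM (log2 fold change -1.07, adjusted p = 6.90e-05). LIG1, the ligase that seals the fragments, had 40.7 ± 0.632 and 38.3 ± 2.82 TPM and did not pass the test.

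Of the 4 nucleotide supply genes 2 rose and 1 fell (background 30.2% and 13.2%). RRM1, the large subunit of ribonucleotide reductase, rose from 44.3, 46.3 and 43.5 TPM to 55.3, 57.3 and 55.5 TPM (log2 fold change 0.32, SE 0.0595, adjusted p = 0.00346). TYMS, which makes thymidylate from deoxyuridylate, rose from 98.1 ± 9.08 to 128 ± 6.19 TPM (log2 fold change 0.38, adjusted p = 0.00531). TK1, which salvages thymidine, had 157, 157 and 161 TPM in siCTR and 136, 143 and 135 TPM in siCEP20, a small fall with no overlap (log2 fold change -0.20, SE 0.0514, adjusted p = 0.0158). The TK1 call was lost without siCEP20 replicate 3 and without the mean-variance trend (adjusted p up to 0.0520). TYMS over TK1 was 0.618 ± 0.0579 in siCTR and 0.924 ± 0.0171 in siCEP20. RRM2, the small reductase subunit whose level follows S phase, had 64.7 ± 4.31 and 71.6 ± 6.92 TPM and did not pass the test. AFMID, which starts 125 bases from TK1 on the opposite strand, fell as well (log2 fold change -0.65; adjusted p = 0.0510 without a filter on TPM), and TYMS overlaps ENOSF1 by 3261 bases on the opposite strand, which did not pass the test.

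Behind the fork, chromatin assembly factor 1 places new histones and UHRF1 with DNMT1 copies DNA methylation. CHAF1B rose from 8.82, 8.59 and 9.65 TPM to 12.1, 12.9 and 12.3 TPM (log2 fold change 0.42, SE 0.0871, adjusted p = 0.00562), a call that held in all 14 alternatives. CHAF1A, the large subunit, had 15.2, 15.4 and 17.9 TPM in siCTR and 20.1, 20.6 and 18.6 TPM in siCEP20. It rose at an adjusted p of 0.0373, and the call was lost in 9 of 14 alternatives, 4 of which left out 1 library (siCTR replicate 1 or 2, siCEP20 replicate 1 or 2). DNMT1 had 52.9, 56.0 and 58.3 TPM in siCTR and 60.9, 66.7 and 57.0 TPM in siCEP20, UHRF1 had 24.6 ± 3.30 and 21.8 ± 1.13 TPM, and neither passed the test. UHRF1 was lower under median-of-ratios scaling, quantile normalization and the length and GC correction, and without siCTR replicate 1 (adjusted p = 0.0378).

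The median transcript of the genes that fell was shorter than that of the genes that rose, both in the machinery and among all genes. The median length of the longest annotated transcript was 3744 bases in the 14 genes that rose, 2163 bases in the 8 that fell and 3321 bases in the 26 that did not pass the test, and over all tested genes with a length it was 4177, 2244 and 3283 bases. The Spearman correlation of length with log2 fold change, across genes that share the same 6 libraries and are not independent replicates, was 0.206 in the 48 genes and 0.233 in 14737 genes. GINS1, at the foot of the plot of fold change against length, was the lowest of the 48 genes and not among the short ones. The part of transcript length in the single changes was not tested. Under the correction for length and GC content, 10 of the 48 genes were higher and 14 lower. That correction also moved the median of all tested genes from 0.13 to -0.0014. Its counts and lost calls therefore do not tell length and GC content apart from this shift. Over all tested genes 20.09% were higher and 21.33% lower under that correction. Pseudogenes named after these genes, picked by symbol alone, were nearly silent, with 16 of 18 at 0 TPM in every library and the highest value at 0.172 TPM.

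**Figure D4:**
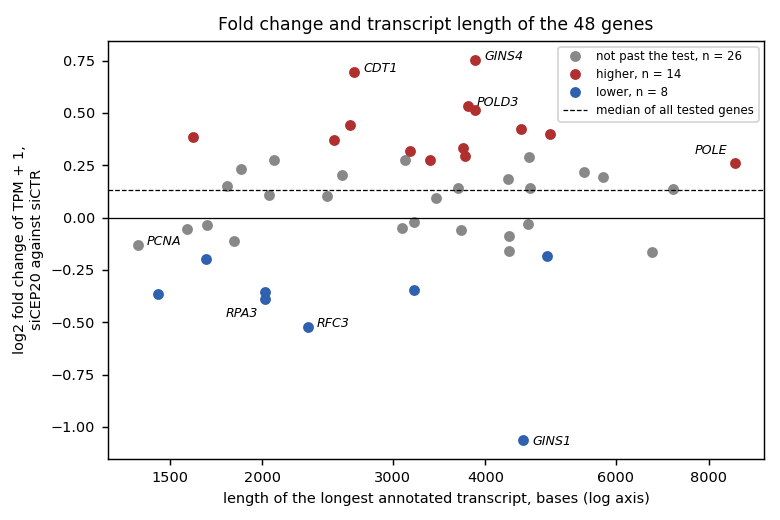
Log2 fold change of TPM + 1 against the length of the longest annotated transcript (log axis) for the 48 genes, of which 14 rose (red), 8 fell (blue) and 26 did not pass the test (grey). Median lengths were 3744, 2163 and 3321 bases, and the dashed line marks the median of all tested genes, 0.13.

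Genes around the machinery were read from 7 lists with 136 genes, of which 135 were tested, 48 rose (35.6%) and 16 fell (11.9%), with a median log2 fold change of 0.18. Of the genes that control origin licensing and firing, 7 of 21 tested rose and none fell (background 30.2% and 13.2%). In the same list 4 were higher and 1 lower under median-of-ratios scaling, 2 and 2 under quantile normalization, and 3 and 2 under the length and GC correction. Over all tested genes 20.05% were higher and 21.55% lower under median-of-ratios scaling. The shares were 21.4% and 19.88% under quantile normalization, and 20.09% and 21.33% under the length and GC correction. The cyclin E gene CCNE1, which drives entry into S phase, rose from 25.8 ± 2.09 to 34.7 ± 2.31 TPM (adjusted p = 0.00531). DTL, the substrate receptor that marks CDT1 for destruction, rose from 10.9 ± 1.34 to 16.0 ± 1.14 TPM (adjusted p = 0.00552), and TICRR, a firing factor, rose from 6.45 ± 0.576 to 9.19 ± 0.365 TPM (adjusted p = 0.00745). CDC7 and DBF4, the kinase pair that starts firing, did not pass the test.

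Fork, loader and polymerase partners were mixed, with 5 of 25 higher (20%) and 4 lower (16%; background 30.2% and 13.2%). There were 3 higher and 6 lower under median-of-ratios scaling (background 20.05% and 21.55%) and 4 and 7 under the length and GC correction (background 20.09% and 21.33%). POLE4, a small histone-fold subunit of polymerase epsilon, fell from 60.0 ± 5.16 to 32.6 ± 2.35 TPM (log2 fold change -0.86, adjusted p = 0.000214), in contrast to the rise of POLE. SMARCAL1, which remodels stalled forks, rose from 23.9 ± 1.25 to 33.3 ± 1.70 TPM (adjusted p = 0.00173), and CHTF8, part of an alternative clamp loader, rose from 77.0 ± 3.76 to 101 ± 5.38 TPM (adjusted p = 0.00245). Nucleotide metabolism was the list with the most lower genes: 8 of 20 fell (40%; background 13.2%) and 3 rose (15%; background 30.2%). NME1, a nucleoside diphosphate kinase, was at 456 ± 16.8 TPM in siCTR and fell to 281 ± 4.87 TPM (log2 fold change -0.69, adjusted p = 5.45e-05). Its neighbour and close homologue NME2 fell by 0.32 on the log2 scale, from 1658 ± 12.5 to 1325 ± 33.7 TPM. DCTPP1, which removes damaged deoxynucleotides, fell from 153 ± 9.82 to 99.2 ± 0.483 TPM (log2 fold change -0.62). NME1 and NME2 are alike in sequence and lie side by side, so the division of reads between them is uncertain.

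In the list of replication-coupled chromatin factors 7 of 17 rose (41.2%; background 30.2%) and 1 fell. The gene that fell was H2AZ1, a histone variant gene, from 342 ± 24.0 to 191 ± 16.5 TPM (log2 fold change -0.84, adjusted p = 0.000153), while SUPT16H, a subunit of the histone chaperone FACT, rose from 70.2 ± 3.77 to 89.2 ± 2.08 TPM and the remodeller HELLS from 15.4 ± 1.42 to 22.5 ± 2.30 TPM. Of the replication checkpoint genes 5 of 18 rose (27.8%; background 30.2%) and 1 fell. ETAA1, an activator of the kinase ATR at single-stranded DNA, rose from 2.96 ± 0.291 to 7.10 ± 0.755 TPM (log2 fold change 1.03, adjusted p = 0.000460), BRCA1 rose from 13.4 ± 2.06 to 21.5 ± 3.28 TPM (adjusted p = 0.00689), and RAD9A, of the checkpoint clamp, fell from 52.0 ± 2.59 to 42.4 ± 0.804 TPM (adjusted p = 0.00807).

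Regulators of the S phase and mitotic programmes were read last. The list of E2F and pocket protein genes also holds MYBL2, FOXM1, LIN9, LIN37, LIN52 and LIN54. Of its 19 genes 10 rose (52.6%, against a background of 30.2%) and 1 fell. MYBL2 was at 43.8 ± 1.92 TPM in siCTR and 87.6 ± 3.72 TPM in siCEP20 (log2 fold change 0.99, adjusted p = 4.71e-05). The E2F partner TFDP1 was at 48.9 ± 3.17 and 70.2 ± 1.84 TPM (log2 fold change 0.51) and FOXM1 at 54.0 ± 5.11 and 80.8 ± 5.06 TPM (log2 fold change 0.58). Of the mitotic proliferation genes 11 of 16 rose (68.8%; background 30.2%) and 1 fell. MKI67, the proliferation antigen, rose from 23.6 ± 2.68 to 45.8 ± 3.46 TPM (log2 fold change 0.93, adjusted p = 0.000261), and the kinetochore genes CENPF and CENPE rose from 9.54 ± 1.04 to 17.1 ± 1.48 TPM and from 1.72 ± 0.166 to 3.95 ± 0.0571 TPM. The difference between these lists and the machinery was not tested. Under median-of-ratios scaling 6 genes of the E2F and pocket protein list were higher and 1 lower. Of the mitotic genes 6 were higher and 2 lower there, both lists against a background of 20.05% and 21.55%. The chromatin and checkpoint lists had as many or more lower than higher genes under the length and GC correction (3 and 3, 2 and 4). All tested genes were also near balance there, with 20.09% higher and 21.33% lower. Of the 21 genes named from these lists, TICRR, CHTF8 and NME2 each lost their call in at least 1 alternative scaling or correction, and none lost it when a library was left out.

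**Figure D5:**
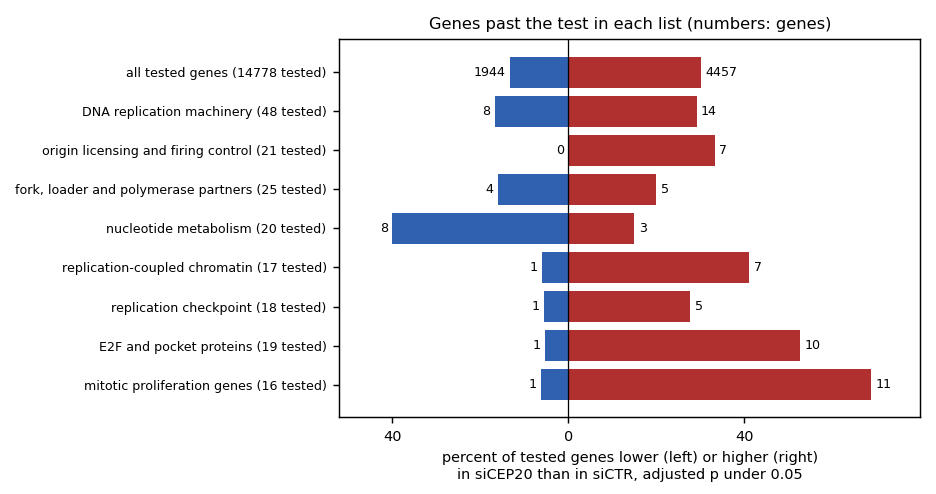
Percent of tested genes that were lower (left) or higher (right) in siCEP20 at an adjusted p under 0.05, for all tested genes, the 48 replication genes and 7 lists of neighbouring genes, with the number of genes at each bar. The replication genes (14 higher, 8 lower) are close to all tested genes (30.2% and 13.2%), nucleotide metabolism has 8 of 20 lower, and the mitotic genes have 11 of 16 higher.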

How the data were processed

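Per the labels' processing notes, the authors trimmed reads with fastp 0.20.1, aligned them to hg38 with HISAT2 2.1.0 and quantified them with StringTie 2.0, and they deposited TPM values for each Ensembl gene. TPM divides by the library total and keeps no read counts, so depth is unknown, no counting interval was made and precision rests on 3 libraries a group. Labels and methods differ on medium, RNA kit, RNA amount and library kit. Genes were placed with GENCODE release 44 (hg38). With limma 3.58.1 in R 4.3.3 (trend, no rescaling), log2(TPM + 1) was fitted for genes whose mean was 1 TPM or more, with Benjamini-Hochberg adjustment. Such fold changes understate those of low genes. The fit was tested on simulated data. The genes and lists were chosen with earlier results of these data known. Values in every library were given for genes past both thresholds and for the gene with the smallest adjusted p and the highest TPM in each role, and the 3 smallest adjusted p were named in each neighbouring list. GMNN, CDC7, DBF4 and genes that overlap or start beside a member were named after their values were seen, and sums and ratios of subunits were described without a test. Alternatives changed the pseudocount (0.1), filter (none, 5 TPM), scaling, trend, replicate block, length and GC correction, and left out each library. One blood cell marker is not reported here.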

Additional observations from a re-analysis of the deposited data

How the results depend on the processing

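Of the 14 genes that rose and the 8 that fell, 10 and 4 held in all 14 alternatives, and none of the 22 changed direction. The scaling mattered most for counts: 16 genes were lower under median-of-ratios scaling and 14 under the length and GC correction. Over all tested genes 20.05% were higher and 21.55% lower under median-of-ratios scaling. The shares were 21.4% and 19.88% under quantile normalization, and 20.09% and 21.33% under the length and GC correction. Past both thresholds, 1 gene was higher under median-of-ratios scaling and under quantile normalization, and 2 were lower under both of these and under the length and GC correction. The median log2 fold change of the 48 genes was -0.0085, 0.038 and -0.0047 under median-of-ratios scaling, quantile normalization and the length and GC correction. Of the neighbouring genes 28, 31 and 28 were higher under the same 3 settings, and 30 were lower under the length and GC correction. Leaving out each library gave 11 to 16 higher and 5 to 9 lower genes, 2 to 3 and 1 to 2 past both thresholds. Estimates that changed sign belonged to genes that did not pass the test. Under median-of-ratios scaling these were ORC5 (log2 fold change -0.0382), MCM2 (-0.0526), MCM5 (-0.00868), RFC5 (-0.0435), RRM2 (-0.00827) and DNMT1 (-0.00998). Under quantile normalization they were ORC5 (-0.0221), RFC5 (-0.0328) and POLE2 (-0.0362). Under the length and GC correction they were ORC2 (-0.000996), MCM2 (-0.031), MCM5 (-0.0331), POLA1 (-0.0251), RRM2 (-0.00849) and DNMT1 (-0.0978). With each library left out, CDC6 ran from -0.0937 to 0.0634, POLD1 from -0.108 to 0.0221 and RPA2 from -0.142 to 0.00329. The replicate numbers gave no clear sign of pairing. Correlations of same-numbered deviations were 0.157, -0.0614 and -0.0623, against 0.17 for siCTR replicate 2 with siCEP20 replicate 3. Deviations from the means of 3 libraries cannot exclude a weak pairing. With the replicate number as a block 14 genes were higher and 8 lower, CHAF1A being lost and CDC45 gained. The cause of these shifts was not tested. Depth limits all of this in an unknown way, since TPM keeps no counts.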
